A study of Rattus norvegicus with 5 samples.

Results

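The genes described here are those of the rat major histocompatibility complex (MHC) and of antigen presentation in the cornea. They comprise every gene whose symbol starts with RT1-, the name of the MHC in the rat, and 10 further symbols: B2m, Tap1, Tap2, Tapbp, Psmb8, Psmb9, Psmb10, Cd74, Ciita and Nlrc5. Of the 20339 genes in the deposited gene table, 30 belonged to the set: 13 class I RT1 genes, 8 class II RT1 genes and 9 of the further symbols. Psmb10 had a row only in the deposited isoform table, as had 8 RT1 symbols. RNA-seq was performed on corneas of male Sprague-Dawley rats aged 6 months, 3 of them wild-type and 2 transgenic. The transgenic animals are called P1 hMR and carry human NR3C2, the gene of the mineralocorticoid receptor, a steroid-activated transcription factor. What P1 stands for, the cells in which the transgene was active and the number of founder lines are not given in the sources used here. Nor are the RT1 haplotypes of the animals, or whether each library came from a separate animal, so p-values measure the spread between these 5 libraries, which may be technical.

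Class I molecules pair a polymorphic heavy chain with β2-microglobulin, the product of B2m, and show peptides from inside the cell to CD8+ T cells. The peptides are cut by the proteasome, whose immune form holds the subunits encoded by Psmb8, Psmb9 and Psmb10, carried into the endoplasmic reticulum by the Tap1-Tap2 transporter, and loaded with the help of tapasin, the product of Tapbp. Class II molecules are pairs of an α and a β chain, assembled with the invariant chain (Cd74), and show peptides from endosomes to CD4+ T cells; they are characteristic of dendritic cells, macrophages and B cells. Nlrc5 and Ciita encode the transactivators of class I and class II genes, and interferon-γ is a known inducer of both.

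Total expected counts per library ran from 20874010 to 30449675 in the gene table. Human NR3C2 was listed at 0 counts in the 3 wild-type libraries and at 1094 and 1146 counts in transgenic libraries 1 and 2, as labelled. Summed markers of corneal epithelium ran from 94538 to 119359 CPM over the 5 libraries, and those of keratocytes and corneal endothelium, given below, were likewise present in each library. Levels below are counts relative to library size (CPM, with the library sizes scaled by edgeR's TMM factors), and differences are edgeR's fitted log2 fold changes, transgenic over wild-type, with their standard errors. A gene was called when its Benjamini-Hochberg adjusted p over all 13304 genes tested was under 0.05. Values in these libraries describe bulk tissue, in which fewer cells of a type and less RNA per cell cannot be told apart. Gene lengths were not used, so levels of different genes are not set against each other.

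Of the 30 genes, 26 passed the filter on low counts and were tested: 10 class I RT1 genes, 7 class II RT1 genes and the 9 others. The adjusted p of edgeR was above 0.05 for all 26, and the smallest among them was 0.404, for RT1-M6-2. Over all genes the same rule called 0.00752% of those tested, which is 1 gene, NR3C2 itself. DESeq2 called 52 genes, 0.391% of those tested, and none of the 26, for which its smallest adjusted p was 0.0707. At an unadjusted edgeR p under 0.05, 7 of the 26 were lower and 0 higher in the transgenic corneas, where the shares over all genes were 1.93% lower and 4.39% higher. Both transgenic libraries lay below all wild-type libraries for 6 of the 26 (RT1-Ba, RT1-Db1, RT1-M6-2, RT1-N3, RT1-S3 and Tap1) and above all of them for 0; over all genes these shares were 10.7% and 12.0%. The fitted difference was below 0 for 20 of the 26 and for 51.8% of all genes. The median difference was -0.31 on the log2 scale over the 26 and -0.01 over all genes tested. The counts of genes moved with single libraries. An unadjusted edgeR p under 0.05, in either direction, was reached by 2 of the 26 without wild-type 1, 11 without wild-type 2 and 6 without wild-type 3. Fitted differences below 0 numbered 20, 18 and 19 in those fits, and 15 and 21 without transgenic 1 and 2. Summed pigment cell markers were also apart between the groups, at 45.8, 9.54 and 32.2 CPM in wild-type libraries 1 to 3 and 80.4 and 151 CPM in the transgenic libraries, with 7 of 7 tested markers above all wild-type values. Vessel endothelium markers summed to 61.5, 48.9 and 55.8 CPM against 76.0 and 67.0 CPM, corneal endothelium markers to 576, 559.6 and 631 CPM against 676 and 694 CPM, and keratocyte markers to 1396, 1431 and 1377 CPM against 1585 and 1473 CPM. In each of these 4 lists both transgenic sums lay above all wild-type sums. Their part in the values of the antigen presentation genes was not tested.

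**Figure D1:**
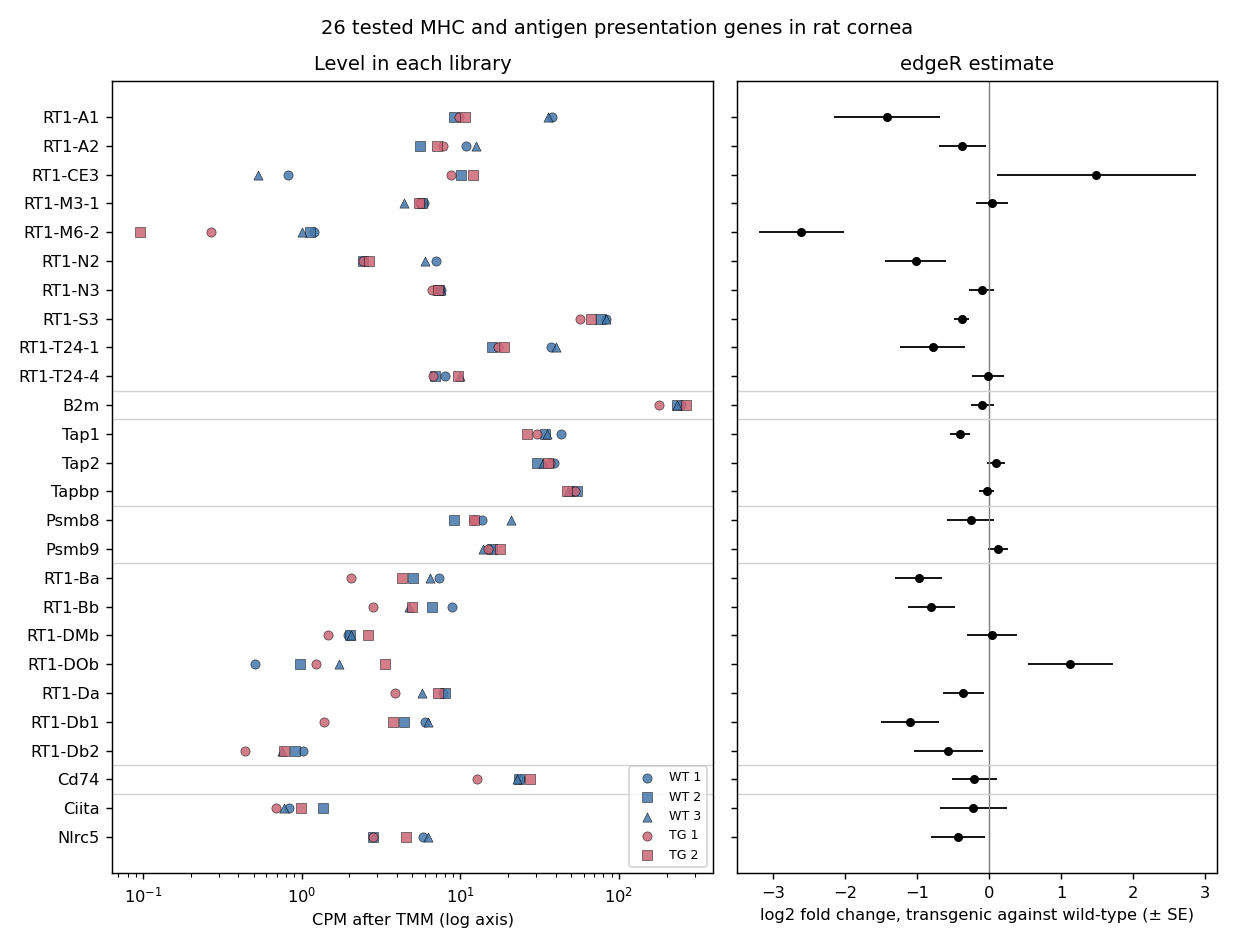
Left, CPM on a log axis of each of the 26 tested genes in the 3 wild-type (WT) and 2 transgenic (TG) libraries, one point per library. Right, the fitted log2 fold change of each gene with a bar of 1 standard error to either side. For 20 of the 26 genes the fitted difference lies below 0, and none passed the threshold.

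The start regions of 6 genes are given here because the results turn on these genes and because class I, class II and transporter genes are known to share short promoter elements. RefSeq holds a window for 26 of the 30 symbols, from 250 bases before to 50 bases after the annotated start, on build GRCr8. The 6 windows lie at chr20:4906959-4907258 on the plus strand (RT1-A1), chr20:3525109-3525408 on the minus strand (RT1-CE3), chr20:2675278-2675577 on the plus strand (RT1-S3), chr3:129549080-129549379 on the plus strand (B2m), chr20:4668494-4668793 on the minus strand (Tap1) and chr20:4576807-4577106 on the plus strand (RT1-Ba). Each reads 5′ to 3′ on its gene's strand, and capitals mark an exact match on either strand. The patterns were CCAAT (the box bound by NF-Y), TGACG (the core of the X2 or CRE element) and GAAANNGAAA (a strict form of the interferon response core).
RT1-A1: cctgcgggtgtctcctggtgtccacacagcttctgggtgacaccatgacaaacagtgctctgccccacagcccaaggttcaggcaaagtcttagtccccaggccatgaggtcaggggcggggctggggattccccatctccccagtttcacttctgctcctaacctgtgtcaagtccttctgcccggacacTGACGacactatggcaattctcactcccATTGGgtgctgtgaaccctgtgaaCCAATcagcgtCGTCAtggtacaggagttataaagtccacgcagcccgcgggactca
RT1-CE3: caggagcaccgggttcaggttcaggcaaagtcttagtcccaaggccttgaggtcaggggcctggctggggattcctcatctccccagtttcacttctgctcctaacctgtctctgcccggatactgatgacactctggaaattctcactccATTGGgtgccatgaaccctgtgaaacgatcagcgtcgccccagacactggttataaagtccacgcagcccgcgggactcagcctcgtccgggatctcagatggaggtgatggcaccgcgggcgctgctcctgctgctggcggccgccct
RT1-S3: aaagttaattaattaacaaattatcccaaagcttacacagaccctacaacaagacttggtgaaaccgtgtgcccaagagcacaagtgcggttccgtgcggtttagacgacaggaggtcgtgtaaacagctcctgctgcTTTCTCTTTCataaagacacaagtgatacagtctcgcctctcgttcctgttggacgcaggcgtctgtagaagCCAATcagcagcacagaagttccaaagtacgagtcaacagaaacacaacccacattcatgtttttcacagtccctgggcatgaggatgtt
B2m: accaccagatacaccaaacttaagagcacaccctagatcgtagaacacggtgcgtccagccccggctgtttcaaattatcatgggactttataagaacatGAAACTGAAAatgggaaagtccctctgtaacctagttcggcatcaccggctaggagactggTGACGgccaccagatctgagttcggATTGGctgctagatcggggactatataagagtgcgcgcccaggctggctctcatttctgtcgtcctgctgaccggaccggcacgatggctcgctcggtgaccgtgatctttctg
Tap1: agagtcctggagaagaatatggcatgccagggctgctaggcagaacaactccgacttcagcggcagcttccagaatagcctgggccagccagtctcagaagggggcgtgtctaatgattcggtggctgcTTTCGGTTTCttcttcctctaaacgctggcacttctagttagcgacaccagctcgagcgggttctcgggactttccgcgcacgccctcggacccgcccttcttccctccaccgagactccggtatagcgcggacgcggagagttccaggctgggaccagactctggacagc
RT1-Ba: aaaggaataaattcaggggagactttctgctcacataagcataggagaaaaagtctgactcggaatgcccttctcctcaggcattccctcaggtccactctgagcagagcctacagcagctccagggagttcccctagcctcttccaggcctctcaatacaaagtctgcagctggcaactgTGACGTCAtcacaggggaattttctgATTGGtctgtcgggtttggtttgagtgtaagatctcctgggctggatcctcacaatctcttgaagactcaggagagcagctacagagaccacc

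The B2m window held all 3 motifs, with the interferon core at -150 to -141, TGACG at -89 to -85 and CCAAT on the opposite strand at -64 to -60, counted from the start. RT1-A1 held CCAAT and TGACG but no match to GAAANNGAAA, RT1-CE3 matched CCAAT alone, and RT1-S3 held CCAAT and the interferon core. The windows of RT1-A1 and RT1-CE3 both hold the stretch agtttcacttct, which departs from GAAANNGAAA on either strand and was not counted. Lack of a match therefore does not mean lack of an interferon response element. RT1-Ba held CCAAT and a pair of overlapping TGACG matches on opposite strands, and Tap1 held only the interferon core, at -121 to -112. CCAAT occurred in 7 of 7 class II, 9 of 12 class I and 4 of 7 other windows, and in 37.5% of all 33469 windows of that length. GAAANNGAAA occurred in 0 of 7 class II, 3 of 12 class I and 5 of 7 other windows, against 3.92% of all windows. TGACG occurred in 1 of 7 class II, 4 of 12 class I and 2 of 7 other windows, against 21.2% of all. These windows are of the reference strain's build and not of the animals studied, and a match of letters is not a bound site. Start windows were aligned end to end, and a base set against a gap counted as unlike. On that measure RT1-A1 and RT1-CE3 were identical in 55.8% of alignment columns, RT1-A1 and RT1-A2 in 66.5% and RT1-A2 and RT1-CE5 in 80.2%. Windows with differing annotated starts are offset, which lowers these shares. For RT1-A1 and RT1-A2, 232 of 349 columns were identical, and the forward CCAAT lay at -7 to -3 and at -56 to -52. The shares thus understate how alike the paired bases are. Over all pairs of the 18 class I windows, those listed only in the isoform table included, the most alike were RT1-M6-1 and RT1-M6-2, at 96.0%.

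The class I RT1 genes showed a difference between individual libraries that did not follow genotype. RT1-A1, a gene of the classical class I region, stood at 37.7, 9.12 and 35.5 CPM in wild-type libraries 1, 2 and 3 and at 9.81 and 10.8 CPM in transgenic libraries 1 and 2. The transgenic values were close to wild-type 2 and far below wild-type 1 and 3, so the groups overlapped. The fitted difference was -1.42 ± 0.73, with an edgeR adjusted p of 0.839. RT1-CE3, one of the class I genes of the CE region, ran the other way, at 0.818, 10.1 and 0.532 CPM in the wild-type libraries, set against 8.81 and 12.1 CPM in the transgenic libraries. Here wild-type 1 and 3 were the low libraries, and the fitted difference was 1.48 ± 1.38 (edgeR adjusted p = 0.896). Of the reads that the authors' counting gave to RT1-A1 or RT1-CE3, RT1-A1 took 97.8% in wild-type 1 (exact binomial 95% interval 96.8 to 98.6%), 47.4% in wild-type 2 (42.4 to 52.5%) and 98.5% in wild-type 3 (97.4 to 99.2%). In transgenic 1 it took 52.6% (48.0 to 57.1%) and in transgenic 2 47.2% (43.5 to 50.9%). These intervals cover counting error only, and they leave out how the reads of like sequences were divided.

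RT1-T24-1 and RT1-N2, nonclassical class I genes of other parts of the complex, were low in the same 3 libraries as RT1-A1. RT1-T24-1 stood at 37.3, 15.9 and 40.1 CPM in the wild-type and 17.2 and 18.9 CPM in the transgenic libraries (log2 fold change -0.79 ± 0.45, edgeR adjusted p = 0.855). Isoforms labelled RT1-T24-1 held few of these counts, 34.2, 13.4 and 19.7 expected counts in the wild-type and 34.55 and 40.3 in the transgenic libraries, of 1032, 325, 881, 446 and 594 in the gene row. Per library size these isoforms ran the other way, at 1.17, 0.616 and 0.846 CPM against 1.265 and 1.215 CPM, so the values of RT1-T24-1 are those of the gene row only. RT1-N2 stood at 6.995, 2.43 and 6.04 CPM in the wild-type and 2.44 and 2.67 CPM in the transgenic libraries (-1.02 ± 0.43, edgeR adjusted p = 0.777). For both genes wild-type 2 was the lowest of the 5 libraries, below either transgenic value. Among the counts of the RT1-N2 and RT1-N3 gene rows together, the RT1-N2 row held 48.3%, 25.1% and 44.5% in the wild-type libraries, set against 26.7% and 27.1% in the transgenic libraries. Among those of RT1-T24-1 and RT1-T24-4, RT1-T24-1 held 82.3%, 69.7% and 80.1% against 71.9% and 66.3%. The gene row named RT1-A2, also a gene of the classical region, ranked likewise with wild-type 2 lowest, at 10.8, 5.60 and 12.6 CPM against 7.81 and 7.14 CPM (-0.37 ± 0.32, edgeR adjusted p = 0.878). That row equalled the isoform labelled RT1-CE4. The isoform labelled RT1-A2 stood at 10.3, 1.91 and 10.6 CPM in the wild-type and 3.82 and 2.76 CPM in the transgenic libraries (-1.22 ± 0.78). When wild-type 2 was left out, RT1-A1 was called lower (-1.82, edgeR adjusted p = 0.0125) and RT1-CE3 higher (3.90, edgeR adjusted p = 0.0223), so both calls rest on which wild-type libraries enter.

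**Figure D2:**
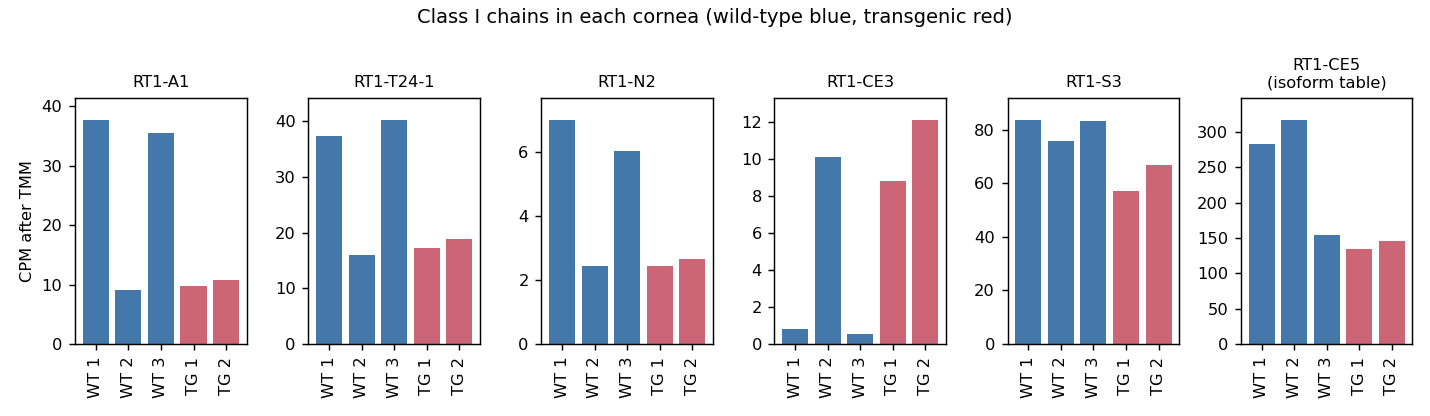
CPM in each of the 3 wild-type and 2 transgenic libraries of RT1-A1, RT1-T24-1, RT1-N2, RT1-CE3 and RT1-S3 from the gene table and of RT1-CE5 from the isoform table, one bar per library. RT1-A1, RT1-T24-1 and RT1-N2 are high in wild-type 1 and 3, RT1-CE3 is low in those libraries, and RT1-S3 is lower in both transgenic libraries than in all wild-type ones.

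RT1-S3 and RT1-M6-2 were lower in both transgenic libraries than in every wild-type library, wild-type 2 included, though neither passed the test. RT1-S3, a nonclassical class I gene, stood at 83.5, 75.9 and 83.2 CPM in the wild-type libraries, set against 57.1 and 66.9 CPM in the transgenic libraries, or 80.9 ± 4.29 (SD, n = 3) and 62.0 ± 6.94 (SD, n = 2). Its fitted difference was -0.38 ± 0.10, with an edgeR adjusted p of 0.492 (unadjusted 0.00452). RT1-M6-2, of the M region, had 33, 23 and 22 counts in the wild-type and 7 and 3 counts in the transgenic libraries, which is 1.19, 1.13 and 1.00 CPM against 0.270 and 0.0955 CPM. This was the lowest adjusted p of the set, 0.404 in edgeR, with a fitted difference of -2.61 ± 0.59, and it rests on 10 transgenic counts. RT1-M6-1, whose start window is nearly the same, was listed only in the isoform table, at 18.7, 8.69 and 3.81 expected counts in the wild-type and 29.1 and 1.14 in the transgenic libraries. Transgenic 1 was thus the highest library of RT1-M6-1 and transgenic 2 its lowest. How reads were divided between RT1-M6-1 and RT1-M6-2 was not tested. RT1-M3-1, whose mouse counterpart presents formylated peptides, ranged from 4.42 to 5.92 CPM in the wild-type and from 5.48 to 5.55 CPM in the transgenic libraries. RT1-T24-4 ranged from 6.92 to 9.95 CPM against 6.71 to 9.63 CPM, and RT1-N3 from 7.31 to 7.57 CPM against 6.66 to 7.20 CPM. The fitted differences of these last 3 genes were 0.04, -0.02 and -0.10. Most counts of the RT1-N3 row came from an isoform labelled RT1-N2, at 129, 78.1 and 102 expected counts in the wild-type and 127 and 131 in the transgenic libraries. The isoform labelled RT1-N3 had 0, 29.7 and 0 expected counts in the wild-type and 14.7 and 65.8 in the transgenic libraries. RT1-M2 and RT1-M5 had 1 count each, in transgenic 2. The gene row of RT1-S2 was listed at 0 in all 5 libraries, but an isoform labelled RT1-S2 had 3, 0 and 1 expected counts in the wild-type and 4.17 and 6.03 in the transgenic libraries. The gene table holds those counts in a row of another name, AABR07044362.2.

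Summed over the 13 class I genes, the level was 199.7, 140.2 and 201 CPM in the wild-type libraries, set against 122 and 141 CPM in the transgenic libraries. The sum keeps reads divided among these 13 rows in any way, but not class I reads counted in rows of other names. An isoform each of RT1-CE1, RT1-CE10 and RT1-CE3 equalled such a row (LOC103690108, LOC100364500 and AABR07044397.1). The group means were 180 ± 34.7 CPM (SD, n = 3) and 132 ± 13.1 CPM (SD, n = 2), a ratio of 0.730. Wild-type 2 and transgenic 2 were within 1 CPM of each other, so the sums overlapped. RT1-S3 held 41.8%, 54.2% and 41.4% of the summed counts in the wild-type and 46.7% and 47.5% in the transgenic libraries, and without it the ratio was 0.701. RT1-A1 held 18.9%, 6.51% and 17.7% in the wild-type and 8.01% and 7.65% in the transgenic libraries. The 10 tested class I genes had a median log2 fold change of -0.38 (range -2.61 to 1.48); 8 were lower and 2 higher, 3 lay below all wild-type libraries, and 0 were called.

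The isoform table named the class I reads differently. It listed 6 class I symbols that are not in the gene table, and these held 68.5%, 76.1% and 58.6% of its class I counts in the wild-type and 64.3% and 61.5% in the transgenic libraries. Most of them belonged to 1 isoform labelled RT1-CE5, at 282, 316 and 155 CPM in the wild-type and 135 and 145 CPM in the transgenic libraries. Wild-type 3 was the lowest wild-type library and lay just above both transgenic ones, unlike RT1-A1, for which wild-type 2 was the lowest. The fitted difference of RT1-CE5 was -0.84 ± 0.32, and its edgeR adjusted p over the 27110 isoforms tested was 1.00. RT1-CE10 was listed at 60.5 and 44.2 expected counts in wild-type 1 and 3 and at 0 in wild-type 2 and both transgenic libraries, the same division of libraries as for RT1-A1 and RT1-CE3. All class I symbols of the isoform table together stood at 477, 450.3 and 357 CPM in the wild-type and 252 and 279.7 CPM in the transgenic libraries, a ratio of 0.621. These sums did not overlap, but they lean on RT1-CE5. That isoform held 59.2%, 70.2% and 43.3% of the class I counts in the wild-type and 53.5% and 51.9% in the transgenic libraries. Among the 44 tested isoforms of the set, 0 were called, as in the whole isoform table (0%), where 1080 isoforms, 3.98% of those tested, had an unadjusted p under 0.05; 4 of these were isoforms of the set.

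**Figure D3:**
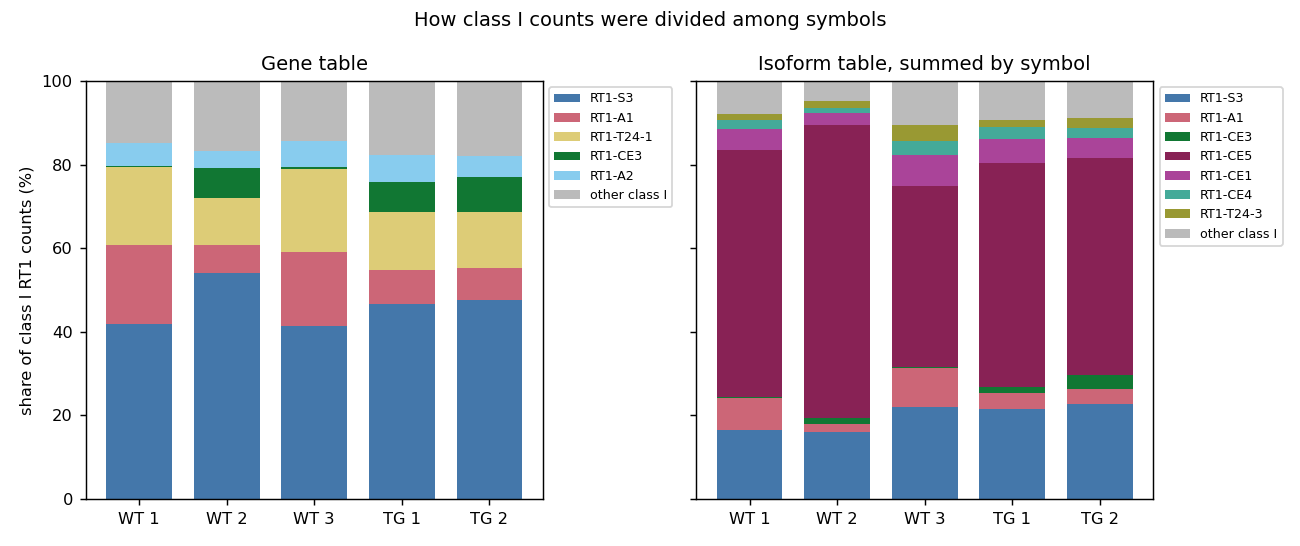
Share of all class I RT1 counts held by each symbol in the 3 wild-type and 2 transgenic libraries, stacked to 100%, from the gene table on one side and the isoform table on the other. In the isoform table RT1-CE5 holds 59.2%, 70.2% and 43.3% of the wild-type and 53.5% and 51.9% of the transgenic class I counts. The gene table has no row of that symbol, and whether a row of another name holds these reads was not settled.

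Class I genes are near-identical copies in part, and the files show where their reads were divided by name. A gene row equalled a sum of isoforms of the same symbol in every library, within 0.03 counts, for 14 of the 30 genes, among them RT1-A1, RT1-S3, RT1-M6-2, RT1-N2, RT1-T24-4, RT1-Ba, B2m and Cd74. For 5 genes the sum needed an isoform under another gene's name: the row of RT1-A2 equalled an isoform labelled RT1-CE4, that of RT1-CE3 needed an isoform labelled LOC100364500, that of RT1-N3 one labelled RT1-N2, that of Psmb9 one labelled Tap1, and that of RT1-DMb one labelled LOC108348139. Another 5 genes (RT1-Bb, RT1-Da, RT1-DOb, Tap1 and Tapbp) needed isoforms with no gene name, and for RT1-Db1, RT1-M3-1 and RT1-T24-1 no sum was found. The remaining 3, RT1-M2, RT1-M5 and RT1-S2, had at most 5 counts in all. The values of RT1-A1, A2, CE3, CE4, CE5, M6-2, N2, N3 and T24-1 are uncertain as to which copy the reads came from. This holds also where a row equals its own isoforms, since reads may have been divided among isoforms of like copies. For RT1-M6-2 the copy with the nearest start window is RT1-M6-1, which had 29.1 expected counts in transgenic 1 where RT1-M6-2 had 7. Between neighbours, the division between Tap1 and Psmb9 is uncertain too.

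B2m, the light chain of all class I molecules, stood at 245, 233 and 231 CPM in the wild-type and 178 and 264 CPM in the transgenic libraries. The transgenic values lay on either side of the wild-type range, and the fitted difference was -0.10 ± 0.16 (edgeR adjusted p = 0.938). Of the transporter pair, Tap1 was at 43.4, 34.4 and 35.4 CPM in the wild-type and at 30.6 and 26.4 CPM in the transgenic libraries, below every wild-type value. Its fitted difference was -0.41 ± 0.13, with an edgeR adjusted p of 0.639 (unadjusted 0.0127). Tap2, its partner subunit, was at 38.9, 30.4 and 33.2 CPM against 36.9 and 36.0 CPM, within the wild-type range (0.09 ± 0.12, edgeR adjusted p = 0.918). As a description computed after these values were seen, the Tap1 to Tap2 count ratio was 1.11, 1.13 and 1.07 in the wild-type and 0.827 and 0.734 in the transgenic libraries. Tapbp, encoding tapasin, was at 51.0, 54.7 and 47.5 CPM against 52.6 and 47.4 CPM (-0.03 ± 0.10, edgeR adjusted p = 0.974), and the groups overlapped.

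The immunoproteasome subunits overlapped between the groups as well. Psmb8 stood at 13.8, 9.15 and 20.9 CPM in the wild-type and 12.2 and 12.3 CPM in the transgenic libraries (-0.26 ± 0.33, edgeR adjusted p = 0.917). Its lowest and its highest library were both wild-type. Psmb9 stood at 15.5, 15.9 and 13.9 CPM against 14.9 and 17.9 CPM (0.12 ± 0.14, edgeR adjusted p = 0.909). Psmb9 shares a divergent start region with Tap1, their start windows overlapping by 44 bases on opposite strands. The Tap1 to Psmb9 count ratio was 2.80, 2.17 and 2.54 in the wild-type and 2.05 and 1.47 in the transgenic libraries, and it too was computed after the values were seen. Psmb10, read from the isoform table, stood at 11.3, 15.0 and 10.01 CPM in the wild-type and 12.1 and 13.0 CPM in the transgenic libraries (0.05 ± 0.21). Nlrc5, the class I transactivator, stood at 5.81, 2.84 and 6.24 CPM against 2.81 and 4.55 CPM (-0.43 ± 0.37, edgeR adjusted p = 0.878). Wild-type 2 was the lowest wild-type library for Nlrc5, as for Psmb8, RT1-A1, RT1-A2, RT1-T24-1 and RT1-N2. The same held for RT1-S3, RT1-N3, RT1-T24-4, Tap1 and Tap2 and for the class II genes RT1-Ba and RT1-Db1. This place of wild-type 2 was thus not particular to Nlrc5 and class I genes.

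Of the 7 tested class II genes, all but RT1-DOb were lowest in transgenic 1. RT1-Ba and RT1-Bb, the α and β chains of the RT1-B molecule (the counterpart of mouse I-A), were at 7.40, 5.04 and 6.42 CPM (RT1-Ba) and 8.88, 6.66 and 4.78 CPM (RT1-Bb) in the wild-type libraries. In the transgenic libraries RT1-Ba was at 2.04 and 4.30 CPM, below every wild-type value, and RT1-Bb at 2.81 and 4.93 CPM, with transgenic 2 inside the wild-type range. The fitted differences were -0.98 ± 0.33 for RT1-Ba (edgeR adjusted p = 0.676) and -0.80 ± 0.33 for RT1-Bb (edgeR adjusted p = 0.774). RT1-Da, the α chain of the RT1-D molecule (the counterpart of mouse I-E), was at 7.84, 7.98 and 5.78 CPM in the wild-type and 3.89 and 7.29 CPM in the transgenic libraries (-0.36 ± 0.28, edgeR adjusted p = 0.873). Its β chain RT1-Db1 was at 6.03, 4.45 and 6.28 CPM against 1.39 and 3.79 CPM, below all wild-type values (-1.10 ± 0.41, edgeR adjusted p = 0.731). RT1-Db2, a second β chain gene, was at 1.02, 0.903 and 0.752 CPM against 0.442 and 0.775 CPM (-0.57 ± 0.48, edgeR adjusted p = 0.876).

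Among the genes of the peptide exchange molecules, the β chains RT1-DMb and RT1-DOb did not lie below the wild-type values in both transgenic libraries, while RT1-DMa, listed only in the isoform table, did. RT1-DMb, the β chain of the DM molecule that edits class II peptides, stood at 1.95, 2.01 and 2.05 CPM in the wild-type and 1.47 and 2.61 CPM in the transgenic libraries (0.03 ± 0.35, edgeR adjusted p = 0.994). The isoforms of its α chain partner RT1-DMa summed to 0.939, 1.32 and 1.65 CPM against 0.523 and 0.815 CPM. RT1-DOb, the β chain of the DM inhibitor DO, stood at 0.506, 0.979 and 1.73 CPM against 1.23 and 3.37 CPM (1.13 ± 0.58, edgeR adjusted p = 0.833), with transgenic 2 the highest library. Isoforms labelled RT1-DOb held 3.58, 6.68 and 3.22 expected counts in the wild-type and 4.94 and 23.65 in the transgenic libraries. The gene row held 14, 20 and 38 against 32 and 106, and an isoform with no gene name made up the rest. RT1-DOa, the partner of RT1-DOb, had 2, 2 and 6 counts in the wild-type and 8 and 2 counts in the transgenic libraries and was not tested. Cd74, the invariant chain, was at 23.8, 23.5 and 22.7 CPM in the wild-type libraries and at 12.8 and 27.6 CPM in transgenic 1 and 2. The 3 wild-type values lay close together with one transgenic value on each side of them, and the fitted difference was -0.21 ± 0.31 (edgeR adjusted p = 0.936). Ciita, the class II transactivator, was at 0.831, 1.37 and 0.774 CPM against 0.694 and 0.987 CPM (-0.22 ± 0.46, edgeR adjusted p = 0.957).

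The 8 class II genes summed to 33.7, 28.1 and 28.1 CPM in the wild-type and 13.6 and 27.1 CPM in the transgenic libraries, a ratio of means of 0.680. This ratio rested on transgenic 1: without it the ratio was 0.906, and without transgenic 2 it was 0.454. The 7 tested class II genes had a median log2 fold change of -0.57, with 5 lower, 2 higher and 0 called. Summed markers of leukocytes were also lowest in transgenic 1, at 17.0, 17.7 and 13.8 CPM in the wild-type and 12.3 and 21.5 CPM in the transgenic libraries. These markers were highest in transgenic 2, whereas the class II sum was highest in wild-type 1. Those of macrophages and monocytes stood at 104, 97.9 and 92.9 CPM against 92.7 and 109.9 CPM, in the same order of the transgenic pair. Markers of dendritic and Langerhans cells summed to 6.39, 4.50 and 3.82 CPM against 4.32 and 6.14 CPM, with 7 of 10 below 1 CPM in all libraries. Those of B cells summed to 2.60, 2.74 and 2.55 CPM against 3.08 and 2.23 CPM, with Ms4a1 and Cd79b at 0 counts throughout. Markers of T and NK cells summed to 1.48, 1.66 and 1.73 CPM against 0.964 and 1.15 CPM, 11 of 12 of them below 1 CPM in all libraries. The part of these cells in the class II values was not tested.

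**Figure D4:**
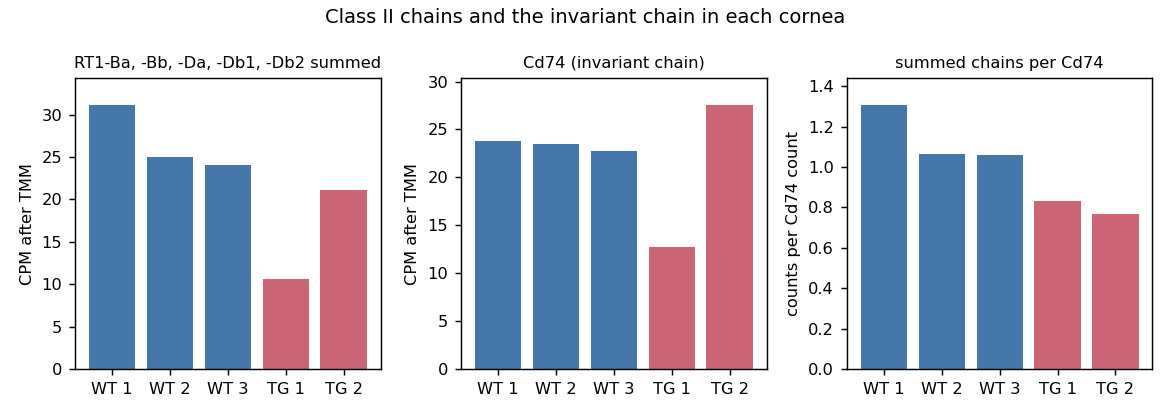
Summed CPM of RT1-Ba, RT1-Bb, RT1-Da, RT1-Db1 and RT1-Db2, CPM of Cd74, and the ratio of the summed class II counts to the Cd74 count, in the 3 wild-type and 2 transgenic libraries. The sum and Cd74 are both lowest in transgenic 1, and the ratio is 1.31, 1.07 and 1.06 in the wild-type and 0.829 and 0.765 in the transgenic libraries.

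Set against Cd74 in the same library, the class II α and β chains were lower in both transgenic libraries; this ratio was chosen after the values were seen and was not tested. The 5 genes summed to 31.2, 25.0 and 24.0 CPM in the wild-type and 10.6 and 21.1 CPM in the transgenic libraries, and per Cd74 count to 1.31, 1.07 and 1.06 against 0.829 and 0.765. RT1-Ba per Cd74 count was 0.311, 0.215 and 0.283 against 0.160 and 0.156, and RT1-Db1 per Cd74 count was 0.253, 0.190 and 0.277 against 0.109 and 0.137. RT1-Bb and RT1-Da per Cd74 count overlapped between the groups. RT1-DOb per Cd74 count ran the other way, at 0.0212, 0.0417 and 0.0762 in the wild-type and 0.0967 and 0.122 in the transgenic libraries. On the class I side, the class I sum per B2m count overlapped in the gene table (0.816, 0.602 and 0.869 against 0.687 and 0.534). In the isoform table, where RT1-CE5 is a large part of the sum, it lay lower in both transgenic libraries (2.06, 2.05 and 1.64 against 1.49 and 1.12).

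Other genes of the pathway, from 4 lists of 52 genes, had no called member. Of these, 47 were in the gene table and 46 were tested; 27 were lower and 19 higher in the transgenic corneas, 0 were called by edgeR, and 1 had an unadjusted p under 0.05. Their median log2 fold change was -0.01, as over all genes. Of the 46, 5 lay below and 6 above all wild-type libraries, near the shares over all genes of 10.7% and 12.0%. Among the regulators, Nfya, a subunit of the CCAAT-binding NF-Y, stood at 39.8, 38.7 and 41.8 CPM in the wild-type and 33.0 and 35.4 CPM in the transgenic libraries (-0.23 ± 0.10, edgeR adjusted p = 0.786, the smallest of the lists). Rfx5, which binds the X box of class II promoters, was at 29.6, 28.8 and 30.6 CPM against 35.2 and 32.7 CPM (0.19 ± 0.10, edgeR adjusted p = 0.835). Neither pair of groups overlapped, and they differed in opposite directions. Of the MHC-like genes encoded outside RT1, Cd1d1, which presents lipids, was at 0.975, 0.881 and 1.27 CPM against 1.62 and 1.75 CPM (0.69 ± 0.37), and Hfe, a regulator of iron uptake, at 1.66, 1.37 and 1.96 CPM against 2.08 and 2.55 CPM (0.48 ± 0.33). In class I folding, the chaperone Calr had a difference of 0.19 ± 0.12 and the peptidase Nrdc of -0.15 ± 0.11. In class II processing, the endosomal protease Ctsh had one of 0.25 ± 0.13. The co-stimulatory receptor ligand Cd86 was at 2.06, 2.40 and 1.59 CPM against 1.35 and 1.40 CPM (-0.55 ± 0.35, edgeR adjusted p = 0.855).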

How the data were processed

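The authors deposited 2 tables of expected counts, with fractions as RSEM gives them, one for genes and one for isoforms, each with 5 corneal libraries. Per the submitters' processing notes, which state no role or order, the tools were RSEM 1.2.28, STAR 2.5.3a, fastp and FastQC, with edgeR 3.28.0, DESeq2 1.26.0 and build rn6. The sources used here do not say whether counting used strand. RSEM divides reads that fit several transcripts, so the values of near-identical RT1 copies depend on that division.

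The counts were rounded to whole numbers, filtered with filterByExpr (minimum count 10) and normalized by TMM. They were tested with the quasi-likelihood test of edgeR 4.0.16 in R 4.3.3 (genotype only, two-sided, Benjamini-Hochberg adjustment over all features tested, threshold 0.05). DESeq2 1.42.0 and limma-voom (limma 3.58.1) were alternatives, with RLE scaling, no filter, a replicate block and each library left out in turn. The edgeR test was run on simulated counts of 13304 genes, with 50 genes changed at each fold. It called 17 of 50 at 1.5-fold, 40 at 2-fold, 38 at 3-fold and 42 at 4-fold, with 20 false calls in all. Each gene was drawn apart from the others, with the spread that edgeR had fitted to it. A split of libraries shared by several genes, as for RT1-A1 and RT1-CE3, was not simulated. The numbers recovered therefore cannot be carried over to such genes. Class sums are summed TMM-scaled CPM over all genes of a class, tested or not. Intervals of shares are exact Clopper-Pearson intervals at 95%, and a count of 0 allows up to 3 counts.

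The genes and all lists were chosen with earlier results of these data known. The text gives values per library for the 9 further genes of the gene table, the 4 class I and 6 class II RT1 genes of highest mean CPM and 4 further RT1 genes of smallest p, and ranges for the rest. Psmb10 is read from the isoform table. RT1-DOa and the rows listed only in the isoform table (RT1-CE1, RT1-CE5, RT1-CE10, RT1-T24-3, RT1-M6-1, RT1-DMa, RT1-Ha) fall outside this rule. So do the isoforms labelled RT1-A2, RT1-DOb, RT1-N2, RT1-N3, RT1-S2 and RT1-T24-1. All of these were picked with their values in view. From each of the 4 pathway lists the 2 genes of smallest p are named. Symbols were matched to RefSeq (30 of 30), and start windows to its GRCr8 table (26 of 30, without RT1-M2, RT1-DMb, Ciita and Nlrc5). Motifs were searched on both strands with Python 3.11.15, and windows were aligned with Biopython 1.88.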

Additional observations from a re-analysis of the deposited data

How the results depend on the processing

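There were 2 transgenic libraries. Counts in them were few for RT1-M6-2 (7 and 3), RT1-Db2 (11.5 and 24.3) and Ciita (18 and 31). In transgenic 1 they were also low for RT1-DOb (32, with 106 in transgenic 2) and RT1-Db1 (36, with 119 in transgenic 2). edgeR called 1 gene in all as reported, 2 without the filter on low counts, 52 with DESeq2 and 16 with the replicate block, and between 2 and 36 when each library was left out in turn. RLE scaling and limma-voom called 1 gene each. With a transgenic library left out, the one that remains is assumed to vary as the wild-type libraries do; 36 genes were called without transgenic 1. The genes of the set called were 0 throughout except when wild-type 2 was left out, which gave 2 (RT1-A1 and RT1-CE3); the range over leaving out each library was 0 to 2. Isoforms called were 0 in each leave-one-out fit. The class I median log2 fold change was -0.24 with no filter, -0.23 with the replicate block, and -0.53 to -0.25 when each library was left out. For the class II median that range was -1.06 to -0.22, and for the class II ratio 0.454 to 0.906. The class I ratio ranged from 0.657 to 0.782. Of 230 combinations of 23 genes and a setting, 216 kept direction and side of the threshold, 2 passed the threshold and 12, of 8 genes, changed sign. With the replicate block, Psmb8 turned to 0.12 and RT1-DMb to -0.0093. When each library was left out, the signs changed for B2m (-0.41 to 0.16), Cd74 (-0.87 to 0.24), RT1-Da (-0.88 to 0.017), Ciita (-0.50 to 0.079, and 0.000594 without transgenic 1), Tapbp (-0.11 to 0.044, and 0.03 without wild-type 2), Psmb8 (-0.49 to 0.093), Psmb9 (-0.019 to 0.25) and RT1-DMb (-0.45 to 0.38). All these values were uncalled, and the cause was not tested. RT1-M6-2 (-3.47 to -2.01), RT1-S3 (-0.50 to -0.27), Tap1 (-0.52 to -0.29), RT1-Ba (-1.62 to -0.55) and RT1-Db1 (-2.01 to -0.56) stayed below 0 with each library left out. Replicate numbers are shared by 2 pairs only and carry no stated link. Deviations of same-numbered libraries from their group means correlated across genes at 0.00066 for number 1 and -0.105 for number 2, so the numbers were not taken as pairs.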

Other observations

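Other isoforms of the set showed values not described above. Isoforms labelled RT1-CE1 summed to 24.4, 13.1 and 26.7 CPM in wild-type libraries 1 to 3 and 14.5 and 13.5 CPM in transgenic libraries 1 and 2, again with wild-type 2 beside the transgenic libraries. Those labelled RT1-T24-3 summed to 6.86, 7.65 and 14.1 CPM against 4.12 and 6.50 CPM, with both transgenic libraries below all wild-type ones and wild-type 3 standing high. Isoforms labelled RT1-Ha, a class II α chain locus, had 2 expected counts in wild-type 1 and in transgenic 2 and were listed at 0 in the other libraries.

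Of the 30 genes with a row in the gene table, 26 lie on chromosome 20 in RefSeq. On that chromosome Psmb8, Tap1 and Psmb9 follow one another, with Tap2 before them, between the class II genes RT1-DOb and RT1-DMb. Tap1 lay below all wild-type libraries in both transgenic libraries, and its neighbours Tap2, Psmb8 and Psmb9 overlapped.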
